A study of Homo sapiens with 16 samples.

Results

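Parental IM-9 cells were compared with 3 myeloma lines, RPMI8226, KMS-11 and U266, on the 8 arrays of parental cells kept at 20% oxygen, out of 16 arrays in the series. Each line had 2 arrays, and the difference given throughout is the IM-9 mean minus the mean of the 3 myeloma line means, so that each line counts equally, on a log2 scale. The parental groups were IM-9, RPMI8226, KMS-11 and U266, all grown for 24 hours in normoxia with no drug or genetic change named in the labels. The other 8 arrays hold hypoxia-resistant (HR) sublines of the same 4 lines, grown for 24 hours at 1% oxygen, and were used here to see which differences were also present there. How the sublines were derived is not given in the sources used here. Each line stands for 1 established human cell culture. Nothing in the labels says that the 2 arrays of a line came from separate cultures, so a p-value computed over arrays measures only the spread between arrays, which may be technical.

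A B cell that meets its antigen can multiply as an activated blast or mature into a plasma cell, which shuts down the receptor and its signalling chain and turns to antibody secretion. PAX5 holds the B cell programme, and PRDM1, XBP1 and IRF4 carry the plasma cell programme. Epstein-Barr virus drives B cells into permanent growth as lymphoblastoid lines, which keep many surface proteins of activated B cells, while myeloma is a cancer of plasma cells. The labels call all 4 lines myeloma-derived. IM-9 came from the marrow of a myeloma patient, but is commonly described as a lymphoblastoid B cell line carrying that virus. No viral transcript was analysed here.

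In IM-9, genes of both programmes read well above the filter level of 6.27, the median of the whole table. MS4A1, CD22, CD79A, CD79B and PAX5, the measured defining B cell markers, were all higher in IM-9 than in every myeloma array. PRDM1, XBP1, IRF4 and JCHAIN read between 9.98 and 12.41 in the IM-9 arrays and were not called different. Still, XBP1 and JCHAIN lay below and IRF4 above every myeloma array, each by less than 2-fold. SDC1 and TNFRSF17 were not called either, and SLAMF7 was higher in IM-9. CD28, IL6R, CXCR4, DEPTOR and RB1 were lower in IM-9 than in every myeloma array. CD38 was too, but its KMS-11 and U266 means were under the filter level as well. HLA-DRA and CD74 were not analysed here.

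The myeloma arrays matched their names on the genes activated by chromosome translocations in myeloma. FGFR3, a growth factor receptor, read 10.90 and 10.79 in KMS-11 and at most 6.74 in the other lines. CCND1, cyclin D1, read 10.74 on both U266 arrays and at most 7.07 elsewhere. MAF, a transcription factor, read 10.12 to 10.31 in RPMI8226 and KMS-11, 6.26 and 6.27 in U266, and 5.82 and 6.03 in IM-9. Markers of other cell types were scarce. Of 21 T and NK cell markers measured, 13 lay under the filter level. The same held for 12 of 16 myeloid, 8 of 14 stromal and 7 of 10 erythroid, megakaryocyte and progenitor markers. CD3E read 5.10 and 4.72 in IM-9, and CD14 read 5.76 and 5.57. Of these 4 lists, PRF1 and ACTA2 were called, both higher in IM-9. PRF1 lost its call without IM-9 array 2, without KMS-11 array 2 and with values under the filter level set to it. Array medians ran from 6.22 to 6.32. In bulk RNA such as this, fewer cells making a transcript and less of it per cell cannot be told apart.

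Of 18417 genes measured, 12285 passed the filter (above 6.27 on at least 2 of the 8 arrays) and were tested. A gene was called when the adjusted p of limma was under 0.05, the difference was at least 2-fold and both IM-9 arrays lay outside the range of all 6 myeloma arrays. By this rule 631 genes (5.14% of those tested) were higher and 515 (4.19%) were lower in IM-9. In 162 of the higher genes all 3 myeloma line means were under the filter level, and in 263 of the lower genes the IM-9 mean was under it, so that those genes passed the filter through the group where they were high. The test over arrays takes no account of how far myeloma lines differ among themselves. With the 4 line means as the units, limma called 0 genes after adjustment (smallest adjusted p = 0.0756, reached by 12 genes), and 527 genes (4.29%) had an unadjusted p under 0.05. The median standard error was 0.07 over arrays and 0.49 over lines. All calls below are therefore statements about these arrays of these lines.

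Counts of genes differing between IM-9 and a myeloma line lay within or below those between myeloma lines. IM-9 differed at least 2-fold at an adjusted p under 0.05 (limma) from KMS-11 in 1893 genes (15.4%), from U266 in 2290 (18.6%) and from RPMI8226 in 2565 (20.9%). Between myeloma lines the counts were 2217 (18%) for KMS-11 and U266, 2446 (19.9%) for RPMI8226 and KMS-11 and 3224 (26.2%) for RPMI8226 and U266. As a description, Pearson's r over all probe sets was 0.925 to 0.948 for the 12 array pairs joining IM-9 to a myeloma line, 0.915 to 0.941 for the 12 pairs joining different myeloma lines, and 0.9925 to 0.9958 within a line.

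**Figure D1:**
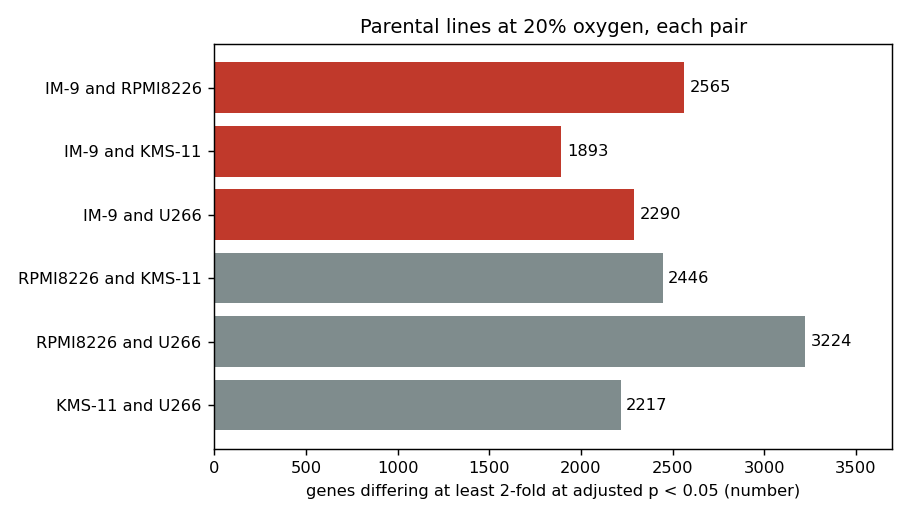
Number of genes differing at least 2-fold at adjusted p under 0.05 between each pair of parental lines (limma, 2 arrays a line, 12285 genes tested); red bars are pairs with IM-9. The smallest count, 1893, is that of IM-9 and KMS-11, and the largest, 3224, is that of the myeloma lines RPMI8226 and U266.

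Of 26 genes of the B cell surface measured, 12 were higher (46.2%, against 3.71% of all 18417 genes measured), 0 were lower, and 8 lay under the filter level. Counts, shares and medians of a list are given over every measured member, from the same fit without the filter. The median difference over the 26 was 0.89, against -0.01 over all genes measured. CD22, an inhibitory co-receptor of B cells, read 10.49 and 10.34 in IM-9 and 4.91, 5.13 and 5.36 as the lowest, median and highest of the 6 myeloma arrays. No myeloma line came near IM-9, and the difference was 5.28 (SE 0.09, limma adjusted p = 1.4e-09). FCER2 (CD23), a low-affinity IgE receptor of activated B cells, read 12.22 and 12.27 in IM-9 against 5.39, 5.83 and 9.38 (difference 5.38, SE 0.07).

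For some of these genes RPMI8226 stood between IM-9 and the other lines. MS4A1 (CD20) read 11.25 and 11.40 in IM-9, 9.21 to 9.78 in RPMI8226, and 4.60 to 5.04 in KMS-11 and U266. The difference was 4.94 with RPMI8226 counted and 6.49 without it. CD79A and CD79B form the signalling part of the B cell receptor. CD79A read 9.63 and 9.72 in IM-9 against 5.60, 6.11 and 6.68 (difference 3.51, SE 0.09). CD79B read 8.03 and 7.90 against 6.36, 6.49 and 7.75, the last in U266. Its difference of 1.11 fell under 2-fold without RPMI8226 (0.92) or without KMS-11 (0.87). CD40, through which T cells stimulate B cells, was 7.40-fold higher and BANK1, an adaptor of the receptor, 11.5-fold. The list was not of a piece. CR2 (CD21), the complement receptor that Epstein-Barr virus uses for entry, read 7.91 and 8.05 in IM-9, inside the myeloma range of 4.19 to 9.15. CXCR5 read 4.59 on both IM-9 arrays, under the filter level.

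The B cell receptor's signalling chain was higher along much of its length. Of 22 members measured, 12 were higher (54.5%, against 3.71% of all genes measured) and 0 were lower, with a median difference of 1.67. The kinases among them were BTK, LYN, BLK, FGR, PRKCB and PIK3CD. PRKCB, protein kinase C beta, read 10.37 and 10.47 in IM-9 against 5.64, 6.32 and 7.33 (difference 4.02, SE 0.08, limma adjusted p = 2e-09). BTK read 9.18 and 9.43 in IM-9, 7.85 as the RPMI8226 mean, 5.73 in U266 and 4.46 in KMS-11. BLNK, the scaffold that joins SYK to its targets, followed the same order with 10.04 and 10.13 in IM-9 against means of 9.11, 5.56 and 4.95. PTPN6 (SHP-1), a phosphatase that restrains the pathway, was also higher, by 3.01. SYK differed by -0.45 and PLCG2 by -0.13, and neither was called. PLCG2 has 2 probe sets, and their mean gave 1.02 in place of -0.13. BLK fell under 2-fold without KMS-11 (0.95), and VAV2 without U266 (0.90).

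The transcription factors of B cells were split. PAX5 read 8.50 and 8.47 in IM-9 against 5.31, 5.62 and 6.24, with no overlap and a difference of 2.74 (SE 0.09, limma adjusted p = 3.3e-08). MEF2C, which acts downstream of the receptor, read 12.04 and 12.12 against 8.93, 9.51 and 9.86 (difference 2.63, SE 0.12). STAT6, IRF8 and the octamer coactivator POU2AF1 were also higher. Each of these fell under 2-fold when 1 line was left out, STAT6 to 0.38 and IRF8 to 0.97 without U266 and POU2AF1 to 0.71 without RPMI8226. BCL6, the repressor of the germinal centre, read 4.66 and 4.35 in IM-9, under the filter level, against 4.85, 6.25 and 7.48. BACH2, a repressor of plasma cell differentiation, read 5.33 and 5.13 against 6.18, 6.40 and 7.07. Both calls were lost when values under the filter level were set to it. In all, 5 of 21 measured factors were higher (23.8%) and 2 lower (9.52%), against 3.71% and 2.82% of all genes measured. Without U266 the counts turned to 3 higher and 6 lower. Leaving out a line eases the rule of no overlap. Over all genes tested, the counts without U266 were 807 higher and 768 lower, against 631 and 515 with it. Among 13 germinal centre genes, GCSAM was higher (11.20 and 11.16 against at most 7.29), and BCL6 and MYBL1 were lower. These were 7.69% and 15.4% of the list, against 3.71% and 2.82% of all genes measured.

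**Figure D2:**
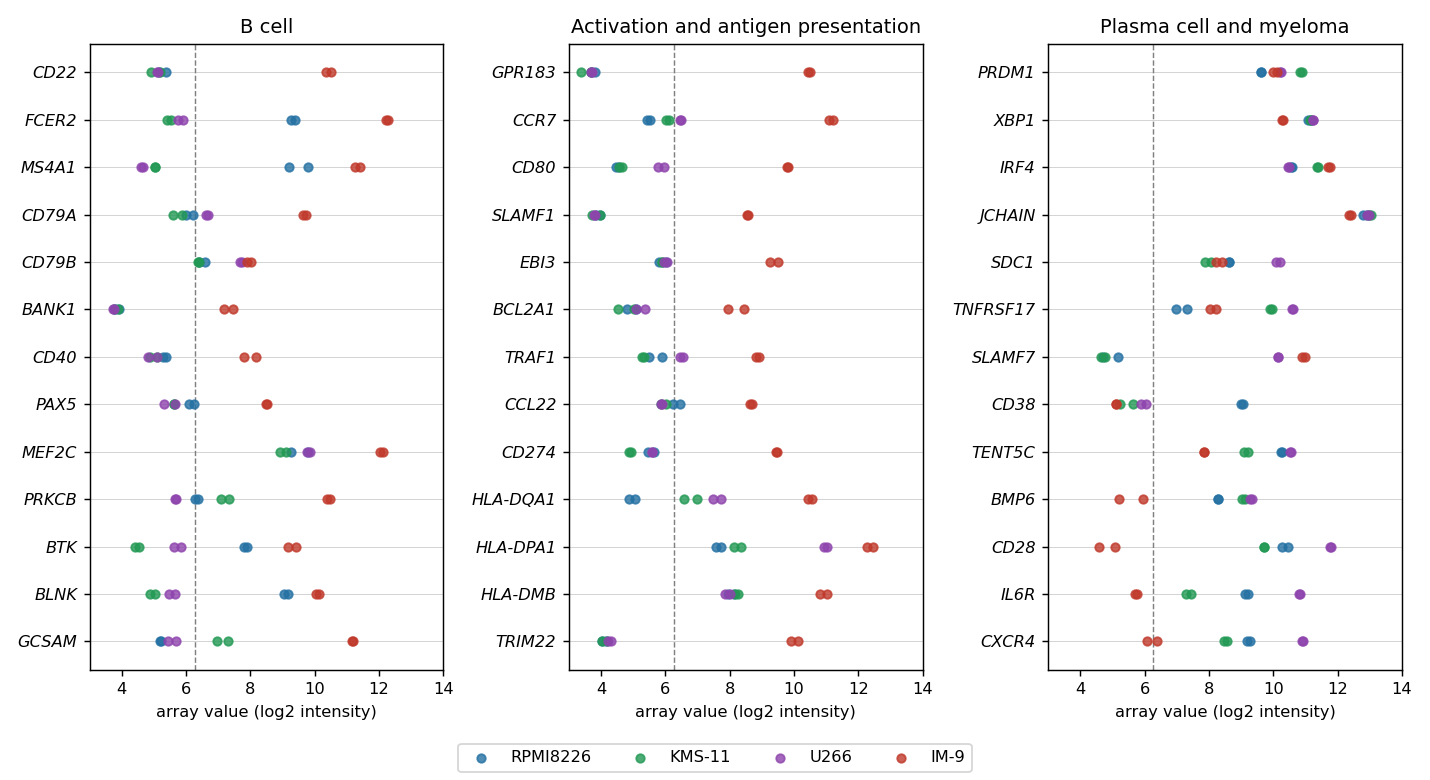
Log2 intensity of 39 genes on the 8 parental arrays, 1 point an array, coloured by line; the dashed line is the filter level of 6.27. Red IM-9 points lie to the right of every myeloma point for the B cell and activation genes drawn, within or close to the myeloma points for PRDM1, XBP1, IRF4 and JCHAIN, and to the left for TENT5C, BMP6, CD28, IL6R and CXCR4.

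Genes of activated and virus-transformed B cells gave the longest list of higher members. Of 33 measured, 16 were higher (48.5%, against 3.71% of all genes measured) and 0 were lower. Of the 33, 28 were above 0, with a median difference of 1.11. GPR183 (EBI2), an oxysterol receptor that positions activated B cells, read 10.44 and 10.49 in IM-9 against 3.37, 3.70 and 3.82. This was a difference of 6.80 (SE 0.09, limma adjusted p = 4.8e-10), with all 6 myeloma arrays far under the filter level. CCR7, the receptor for homing to lymph nodes, read 11.09 and 11.21 against 5.42, 6.07 and 6.47. CD80, a ligand of CD28 on antigen-presenting cells, read 9.82 and 9.77 against 4.45, 4.61 and 5.95. Its relative CD86 was higher by 2.40, with the nearest myeloma array at 8.41.

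EBI3, a cytokine subunit named for its induction by the virus, read 9.25 and 9.51 in IM-9 against 5.81, 5.92 and 6.05. The chemokine CCL22 was 6.07-fold higher and CCL5 4.61-fold. SLAMF1, an activation receptor of lymphocytes, read 8.57 and 8.55 against 3.71 to 3.96. BCL2A1, a survival protein under NF-kB control, read 7.96 and 8.43 against 4.51, 5.06 and 5.35 (difference 3.22, SE 0.17). Smaller calls depended on which lines were counted: CD58 fell to 0.98 without RPMI8226, TNFRSF8 (CD30) to 0.93 and LTA to 0.85 without KMS-11. CCL3 showed a dependence of another kind, with -0.26 over the 3 lines and 1.80 without U266. ICAM1 read 10.11 and 10.10 in IM-9, inside the myeloma range of 8.28 to 10.68, and was not called.

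The list of NF-kB, the transcription factor family that the viral protein LMP1 activates, had 3 of 18 measured members higher (16.7%, against 3.71% of all genes measured) and 0 lower, with a median difference of 0.30. TRAF1, an adaptor of TNF receptors, read 8.83 and 8.90 in IM-9 against 5.26, 5.68 and 6.53, above every myeloma array (difference 3.04, SE 0.10). TNFAIP3 (A20), an inhibitor of the pathway, read 9.70 and 9.87 against 6.21, 9.01 and 9.34. Only the RPMI8226 arrays were far below, and the difference of 1.58 became 0.61 without that line. NFKB1 was higher by 1.02 and lost its call without RPMI8226 (0.92), without U266 (0.74) and without IM-9 array 2. Without RPMI8226 the list's count was 1. RELB differed by -0.01 and NFKB2 by 0.31, and neither was called. In the TNF family 6 of 24 measured genes were higher (25%, against 3.71% of all genes measured) and 0 lower. Among the higher were CD40, TNFRSF13B (TACI), TNFSF13B (BAFF) and the death receptor TNFRSF10B. TNFSF13B lost its call without RPMI8226 and with dim values set to the filter level, and 3 of the family were higher with the filter at the upper quartile and 2 in the HR arrays.

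Of 15 genes of antigen presentation by MHC class II measured, 7 were higher (46.7%, against 3.71% of all genes measured). The lysosomal protease LGMN was the 1 lower member (6.67%, against 2.82%), a call lost without RPMI8226. HLA-DQB1, 1 of the 7, read under the filter level in IM-9 (5.94 and 5.85). HLA-DPA1 read 12.28 and 12.45 in IM-9 against 7.58, 8.23 and 11.03, the highest in U266 (difference 3.42, SE 0.08). HLA-DQA1 read 10.44 and 10.57 against 4.87, 6.78 and 7.72. HLA-DMB, which helps to load peptides, read 10.80 and 11.02 against 7.85, 8.07 and 8.25 (difference 2.84, SE 0.08, limma adjusted p = 1.7e-08). HLA genes vary between people, and a probe set can bind alleles unequally, which these arrays cannot separate from level. CIITA, the master regulator of these genes, read 7.54 on both IM-9 arrays against 6.58 to 7.20. Its difference of 0.65 was under 2-fold. RFX5, which binds the X box of class II promoters, differed by -0.07 (limma adjusted p = 0.31).

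Through the class I pathway cells display peptides cut by the proteasome. Of its 12 genes measured, 5 were higher (41.7%, against 3.71% of all genes measured) and 0 lower. These were the immunoproteasome subunits PSMB8 and PSMB9, the activator PSME2 and the trimming enzymes ERAP1 and ERAP2. ERAP2 read 10.08 and 10.02 in IM-9 against 7.93, 8.36 and 8.70. The list's count was 3 without RPMI8226, where PSMB8 gave 0.86 and PSMB9 0.93.

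Promoters of a few of these genes are shown because they hold the letters of elements named for B cell, class II and NF-kB genes. Only genes called higher are shown. The letters also occur in other listed genes, such as the octamer in PIM2, which was lower. The sequences come from RefSeq (GRCh38.p14), which gives 250 bases before and 50 after each gene's start, and each is printed 5′ to 3′ on the gene's strand with the matches in capitals. The motifs searched, on both strands, were an X box written TAGNAACNGA, the octamer ATGCAAAT and an NF-kB site written GGGNNTTTCC. The printed stretch of HLA-DQA1 lies at chr6:32637273-32637372 (+), that of HLA-DMB at chr6:32941048-32941147 (-) and that of PRKCB at chr16:23835873-23835970 (+). The stretch of MEF2C lies at chr5:88824345-88824434 (-), that of TNFAIP3 at chr6:137867162-137867258 (+) and that of NFKB1 at chr4:102501280-102501358 (+).
HLA-DQA1, X box: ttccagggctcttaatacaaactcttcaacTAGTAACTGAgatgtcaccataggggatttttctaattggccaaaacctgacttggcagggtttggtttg
HLA-DMB, X box: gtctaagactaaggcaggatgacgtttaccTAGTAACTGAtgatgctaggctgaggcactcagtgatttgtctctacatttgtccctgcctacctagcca
PRKCB, octamer: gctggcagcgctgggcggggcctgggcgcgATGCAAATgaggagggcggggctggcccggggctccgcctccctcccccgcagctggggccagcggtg
MEF2C, octamer: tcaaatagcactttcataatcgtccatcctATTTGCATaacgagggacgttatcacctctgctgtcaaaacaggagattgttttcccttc
TNFAIP3, NF-kB site: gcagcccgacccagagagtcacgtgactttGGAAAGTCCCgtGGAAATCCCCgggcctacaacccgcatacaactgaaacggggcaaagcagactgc
NFKB1, NF-kB site: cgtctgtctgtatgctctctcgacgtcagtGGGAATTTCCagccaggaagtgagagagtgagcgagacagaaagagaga

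HLA-DQA1 and HLA-DMB were the members of the class II list with a match to the X box letters, 2 of the 14 with a promoter in the table (14.3%), against 0.945% of all 27305 genes with a promoter there. The octamer occurred in 4.08% of the 490 higher genes with a promoter, in 3.91% of the 409 lower genes and in 2% of the 9810 tested genes. The NF-kB letters occurred in 10 of 18 genes of the NF-kB list (55.6%), of which NFKB1 and TNFAIP3 were called higher and NFKB2, NFKBIA, REL and TRAF3 were not called. Among higher genes they occurred in 3.27%, among lower genes in 1.71% and among tested genes in 2.83%. A match is a description of the letters, not of a bound site.

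The plasma cell side of IM-9 was present but uneven. Of 24 plasma cell genes measured, 7 were lower (29.2%, against 2.82% of all genes measured) and 1 was higher, with a median difference of -0.49. PRDM1 (Blimp-1), which shuts down the B cell programme, read 9.98 and 10.11 in IM-9, inside the myeloma range of 9.60 to 10.89. XBP1, the driver of secretion, read 10.28 and 10.29 against 11.08, 11.18 and 11.24, below every myeloma array by less than 2-fold. IRF4 read 11.69 and 11.76 against 10.44, 10.56 and 11.40, above every myeloma array by less than 2-fold. SDC1 (CD138), the usual plasma cell marker, read 8.41 and 8.21, inside the range of 7.87 to 10.21. TNFRSF17 (BCMA), a survival receptor of plasma cells, read 8.04 and 8.22, above RPMI8226 and below KMS-11 and U266.

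CD28, a costimulatory receptor of T cells that myeloma plasma cells also carry, was the gene farthest below all 3 myeloma lines. CD28 read 4.59 and 5.07 in IM-9 against 9.70, 10.36 and 11.78. The difference was -5.78 (SE 0.12, limma adjusted p = 2.3e-09). BMP6, a growth factor, read 5.94 and 5.20 against 8.28, 9.08 and 9.32. TENT5C, a poly(A) polymerase often mutated in myeloma, read 7.84 on both IM-9 arrays against 9.07, 10.25 and 10.54 (difference -2.13, SE 0.06). CD38, an ectoenzyme and antibody target, read 5.10 on both IM-9 arrays, near KMS-11 and U266, with means of 5.43 and 5.96, and far below RPMI8226 at 9.02. Without RPMI8226 its difference was -0.59, and its call was lost there and with dim values set to the filter level. SLAMF7, another antibody target, went the other way with 10.89 and 10.97 in IM-9, at most 10.15 in U266 and at most 5.18 in RPMI8226 and KMS-11.

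Of 39 genes of the secretory pathway and unfolded protein response, 2 were higher (5.13%) and 1 was lower (2.56%), near the 3.71% and 2.82% of all genes measured, with a median difference of -0.09. With no fold threshold 10 were higher and 11 lower, larger shares than the 1668 and 1813 of all 12285 genes tested. In the HR arrays 5 were higher and 1 lower, where 5.35% and 4.78% of all genes tested were. HSPA5 (BiP), the main chaperone of the endoplasmic reticulum, read 11.59 and 11.62 in IM-9 against 11.29, 11.83 and 12.00. EDEM1 and ERO1B were higher by 1.61 and 2.19, and DDIT3 (CHOP) was lower by 1.47, a call lost with dim values set to the filter level. JCHAIN, which joins antibody units, read 12.35 and 12.41 against 12.79, 12.93 and 13.05. IGKC, the kappa light chain, read 12.74 and 12.73 in IM-9, 11.67 and 11.80 in KMS-11, and 7.37 to 9.25 in RPMI8226 and U266. IGKC has 13 probe sets, of which the brightest was used, and most heavy and light chain genes were not analysed here.

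**Figure D3:**
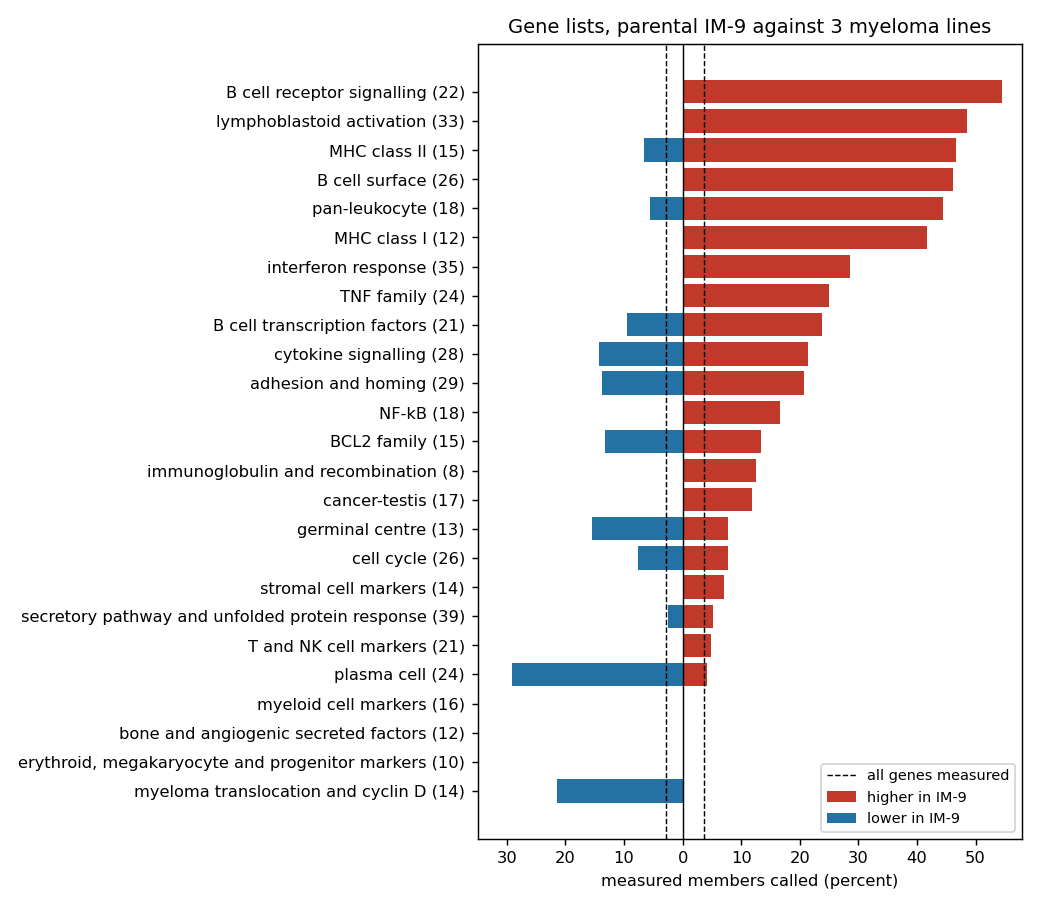
Percent of the measured members of each of 25 gene lists called higher (red, right) or lower (blue, left) in IM-9, with the number measured in parentheses; dashed lines mark 3.71% and 2.82%, the shares of all 18417 genes measured. B cell receptor signalling reaches 54.5% higher, and plasma cell genes reach 29.2% lower.

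Of 28 cytokine signalling genes measured, 6 were higher (21.4%) and 4 lower (14.3%), against 3.71% and 2.82% of all genes measured. IL6R, the receptor of interleukin 6, a main growth factor of myeloma, read 5.76 and 5.69 in IM-9 against means of 9.16 in RPMI8226, 7.36 in KMS-11 and 10.83 in U266. It was 10.5-fold lower (limma adjusted p = 2.3e-09). IGF1R, the receptor of insulin-like growth factor, read 7.09 and 7.06 against 8.57, 9.12 and 9.25. IL6ST, the signalling partner of IL6R, was lower by 1.07, a call lost without IM-9 array 1 and without KMS-11 (-0.65). The kinase PIM2 was lower by 1.23. IL2RB, an interleukin receptor chain, read 9.38 and 9.50 in IM-9 against 5.75, 6.51 and 8.14 (difference 2.66, SE 0.06). IL21R, JAK2, STAT5A, STAT6 and IFNGR1 were higher by 1.23 to 1.97. STAT3, which transmits the interleukin 6 signal, differed by -0.19 and JAK1 by -0.01, and neither was called.

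Adhesion and homing genes were likewise split, with 6 of 29 measured higher (20.7%, against 3.71% of all genes) and 4 lower (13.8%, against 2.82%). Without KMS-11, 7 were lower, while lower calls over all genes tested rose from 515 to 685. CXCR4, which holds plasma cells in the marrow, read 6.08 and 6.38 in IM-9 against 8.47, 9.22 and 10.91 (difference -3.32, SE 0.08). CCR1, SELPLG (PSGL-1) and NCAM1 (CD56) were lower too, by 3.26, 2.01 and 2.33, and NCAM1 lost its call with dim values set to the filter level. The integrin chains ITGAL and ITGB2, which pair as LFA-1, were higher. ITGAL read 9.01 and 9.08 against 5.94, 6.32 and 6.46, and ITGB2 read 8.63 and 8.96 against 5.64, 5.78 and 6.83. ICAM3, a ligand of LFA-1, differed by 0.09 over the 3 lines and by -1.39 without KMS-11.

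KMS-11 set several differences in genes common to white blood cells. PTPRC (CD45) read 10.76 and 10.90 in IM-9, 9.13 to 9.59 in RPMI8226 and U266, and 4.06 and 4.09 in KMS-11. Its difference of 3.22 became 1.46 without KMS-11. CD53, a tetraspanin, gave 2.74 with KMS-11 and 0.97 without it, and LCP1, an actin-bundling protein, 2.49 and 0.84. Of 18 such genes, 8 were higher (44.4%, against 3.71% of all genes measured) and 1 was lower (5.56%, against 2.82%). Their median of 1.61 became 0.95 without KMS-11.

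Interferon-induced genes leaned upward in IM-9, with 34 of 35 measured members above 0 and a median of 0.76. Of the 35, 10 were called higher (28.6%, against 3.71% of all genes measured) and 0 lower. TRIM22, an antiviral ubiquitin ligase, read 9.91 and 10.11 in IM-9 against 4.02, 4.17 and 4.30 (difference 5.86, SE 0.08, limma adjusted p = 5.3e-10). IFI44L read 10.31 and 10.51 against 4.08, 4.41 and 6.33. MX1, an antiviral GTPase, read 9.96 and 10.04 against 7.10, 7.28 and 9.42, the highest in U266. U266 was the line nearest to IM-9 for many of these genes. Without U266 the count was 20 and the median over tested members 1.58, against 10 and 0.83 with it. Higher calls over all genes tested also rose, from 631 to 807, when U266 was left out. ISG15 and IFIT1 differed by 0.38 and -0.14 and were not called.

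Among regulators of cell death, BCL2A1 and the p53-inducible PMAIP1 (NOXA) were higher, and BCL2L1 (BCL-XL) and BCL2L11 (BIM) were lower. BCL2L11 read 6.32 and 6.49 in IM-9 against 7.99, 8.61 and 9.33 (difference -2.24, SE 0.06). BCL2L1 read 8.37 and 8.40 against 8.89, 10.45 and 10.66. BCL2 differed by 0.15 and MCL1 by -0.36, and neither was called. Of 14 members of the myeloma translocation and cyclin D list, 3 were lower (MAF, FGFR3 and CCR1) and 0 were higher. The share lower was 21.4%, against 2.82% of all genes measured, and the median difference was -0.85. MAF and FGFR3 lost their calls with dim values set to the filter level. FGFR3 rested on KMS-11, and its -1.86 became -0.40 without that line. Without U266, 6 members were lower, while lower calls over all genes tested rose from 515 to 768. MYC read 10.77 on both IM-9 arrays, between U266 at 6.67 and 6.71 and the other lines at 11.45 to 11.60. Of 12 secreted factors of bone and vessels, 0 were called by limma (adjusted p, 2-fold and no overlap), although HGF and SPP1 differed by -2.67 and -2.61 within a wide myeloma spread. The 0 rested on single arrays and lines: 2 were lower without IM-9 array 1 or without KMS-11, 1 without RPMI8226, KMS-11 array 2 or U266 array 2, and 3 in the HR arrays. Without U266, 1 was higher and 1 lower.

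Of 26 cell cycle genes measured, 2 were higher and 2 lower (7.69% each, against 3.71% and 2.82% of all genes measured). A lower one, RB1, led a local pattern. RB1, the retinoblastoma tumour suppressor, read 4.38 and 4.77 in IM-9, under the filter level, 10.89 as the RPMI8226 mean, 9.26 in KMS-11 and 7.46 in U266. The difference was -4.63 (SE 0.10, limma adjusted p = 2.7e-09). ITM2B, the next gene with a probe set on chromosome 13, read 4.75 and 4.69 against 8.87, 9.18 and 10.21 (difference -4.69, SE 0.05). LPAR6, a lysophosphatidic acid receptor whose gene lies inside RB1 on the opposite strand, went the other way with 8.15 and 8.37 against 3.89, 4.02 and 4.27. MED4, on the other side of ITM2B, read 8.30 and 8.57 against 7.82, 8.29 and 8.60 and was not called, nor was RCBTB2, beyond LPAR6. ESD and LRCH1, farther out, were higher by 1.84 and 2.08, and LRCH1 lost its call without U266. The same 3 genes stood apart in the HR arrays, by -4.63 for RB1, -4.84 for ITM2B and 3.02 for LPAR6. CDKN2A (p16 and ARF) was lower by 1.09, a call lost without RPMI8226 and without KMS-11. CDKN1A (p21) was higher, with 10.20 and 10.17 against 6.20, 7.69 and 8.27.

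**Figure D4:**
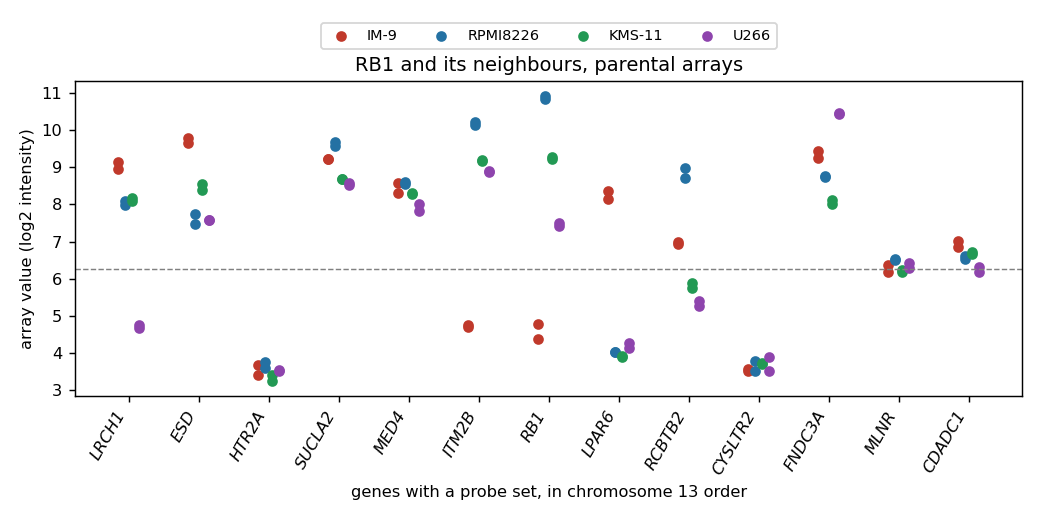
Log2 intensity of RB1 and the 6 genes with a probe set on each side of it, in chromosome order, on the 8 parental arrays; the dashed line is the filter level of 6.27. In IM-9 (red) RB1 and ITM2B read 4.38 to 4.77 while LPAR6 reads 8.15 and 8.37, and MED4 lies among the myeloma points.

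Over all genes tested, list members included, those farthest above the nearest myeloma line were GPR15, FAM9C, DSC3, GPR183, SSX1, TRIM22, SCIMP, CRYBG1, BTLA, GLT1D1, TMEM156, CD22, DSC2, TEX11 and CHI3L2. GPR15, a homing receptor of lymphocytes, read 12.28 and 12.30 in IM-9 against 4.23, 4.37 and 5.13, a difference of 7.73 (SE 0.07, limma adjusted p = 1.7e-10). DSC3 and DSC2 are desmocollins, cadherins of epithelial junctions. DSC3 read 10.46 and 10.48 in IM-9 against 3.31, 3.61 and 3.71, and DSC2 read 9.26 and 9.79 against 4.09 to 4.54. SSX1, a cancer-testis antigen, read 10.53 and 11.21 against 4.11, 4.37 and 5.12. FAM9C and TEX11, both known from testis, differed by 7.09 and 5.15. SCIMP, an adaptor of antigen-presenting cells, and BTLA, an inhibitory receptor, differed by 5.67 and 5.57. Of 17 cancer-testis genes measured, 2 were higher (11.8%, against 3.71% of all genes measured) and 0 lower. Without U266, 7 were higher, while higher calls over all genes tested rose from 631 to 807.

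Farthest below the nearest myeloma line were CD28, ITM2B, TNS3, QPCT, TIMP2, SCML1, IMPACT, DEPTOR, CPT1A, HTATIP2, ADD2, GALM, TEAD1, ZNF667-AS1 and FUCA2. DEPTOR, an inhibitor of mTOR, read 5.17 and 5.12 in IM-9 against 8.48, 10.53 and 11.33 (difference -4.99, SE 0.07, limma adjusted p = 7.8e-10). CPT1A, which admits fatty acids to mitochondria for oxidation, read 6.02 and 5.85 against 9.31, 9.44 and 10.12. TIMP2, a metalloproteinase inhibitor, read 5.56 and 5.25 against 9.0, 10.03 and 10.07. QPCT, an enzyme that modifies peptide ends, read 4.08 and 4.15 in IM-9 and spread from 7.88 to 12.03 in the myeloma arrays. The IM-9 values of all 15 genes were under the filter level, where the scale is compressed. In the test over line means the smallest unadjusted p-values belonged to DSC3, GPR183, FAM9C, TRIM22 and GPR15 among higher genes and to ADD2, TNS3, HTATIP2, TIMP2 and IMPACT among lower ones, and none passed after adjustment (limma).

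Most of the differences were also present in the HR sublines at 1% oxygen, on 8 other arrays. These sublines come from the same 4 lines, so they add no further IM-9 or myeloma line. There 657 genes (5.35%) were higher and 587 (4.78%) lower in IM-9-HR by the same rule. Of the higher genes 474 were shared, 75.1% of the parental and 72.1% of the HR calls. Of the lower genes 349 were shared, 67.8% of the parental and 59.5% of the HR calls. SLCO4C1, an organic anion transporter, was the 1 gene called in opposite directions. SLCO4C1 read 9.24 and 9.53 in parental IM-9 and 4.68 and 4.19 in IM-9-HR, while the myeloma means were 3.93, 7.88 and 6.25 in the parental and 6.20, 7.53 and 6.64 in the HR arrays of RPMI8226, KMS-11 and U266. Oxygen, the selection of the sublines and time in culture cannot be told apart in this comparison.

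The change of the gap itself, tested over all 16 arrays, passed at an adjusted p under 0.05 with at least a 2-fold change (limma) in 150 genes upward (1.22%) and 114 downward (0.928%). Among the 1146 genes called in the parental arrays, 94 had such a change. The largest upward changes were in MAGEC2, SSX3, ROBO2, PAGE2B and FMR1NB. SSX3 read 6.38 and 7.09 in parental IM-9 and 10.90 and 10.84 in IM-9-HR, with myeloma means between 4.58 and 5.59 throughout. ROBO2, an axon guidance receptor, read 6.77 and 7.17 and then 10.73 and 10.82. The largest downward changes were in SLCO4C1, AFAP1-AS1, ITM2A, HMGCS1 and ME1. ME1, the cytosolic malic enzyme, read 8.17 and 8.41 in parental IM-9 and 5.98 and 5.99 in IM-9-HR. CD22 and CD28 kept their direction with smaller gaps, 4.04 and -4.12 in the HR arrays.

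**Figure D5:**
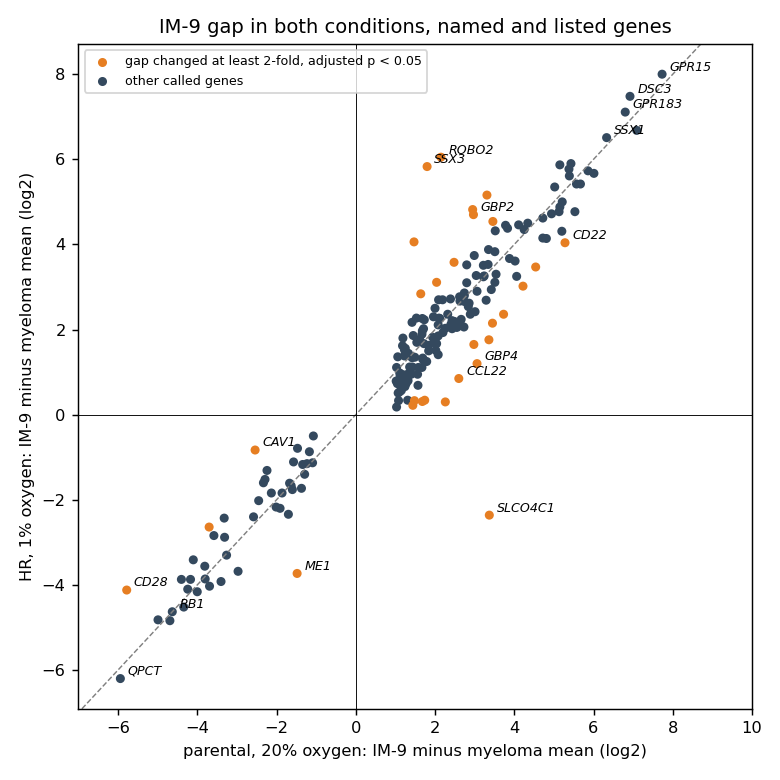
Difference of IM-9 from the myeloma mean in the parental arrays (x) and in the HR arrays (y), both log2, for the called genes named or listed here; the dashed line marks equal gaps and orange points changed by at least 2-fold at adjusted p under 0.05. Most points lie along the line in the upper right and lower left, and SLCO4C1, at 3.37 and -2.36, lies in the lower right.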

How the data were processed

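The deposited series table holds log2 intensities of 33297 Affymetrix probe sets, made by the authors with Affymetrix Expression Console 1.3.0, per the submitters' processing notes; the normalization is not given in the sources used here. The design text names another array type than the platform table, whose 21214 probe sets were all found. Of the probe sets, 19460 had 1 gene symbol, 1754 had several and 12083 none; 19429 matched RefSeq. For 769 of 18417 genes with several probe sets, the brightest was kept. The table has no detection calls, so a level under 6.27 is not called absent. Probe sets of related genes (HLA, SSX, MAGE, histones, APOBEC3) can share signal. Tests used limma 3.58.1 in R 4.3.3 with Benjamini-Hochberg adjustment over 12285 genes and were tested on simulated data. In those data the myeloma lines did not differ from each other, so they cannot show how the tests behave when lines differ. The comparison, the 25 gene lists (521 genes) and the rules were chosen with earlier results of these data known. Named genes were the 15 farthest above and below the nearest myeloma line and the 5 smallest p-values over lines. Also named were up to 8 called members a list and direction, with some uncalled ones, and the 5 largest changes of the gap. CD274, PDCD1LG2 and HIF1A (not discussed here) were chosen after their values were seen. So were the genes named as neighbours on a chromosome.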

Additional observations from a re-analysis of the deposited data

Results flagged for a closer look

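The gap between IM-9 and the myeloma lines differed between the parental and the HR arrays for 22 genes, by limma's test of that difference over 16 arrays. These were either named by the rules and called in the parental arrays, or among the 5 largest changes in each direction. Genes on the lists or in runs that met neither condition were not counted. The values are the HR gap minus the parental gap on the log2 scale, and no cause was tested. The largest upward changes were in cancer-testis genes and others. They were 4.21 for MAGEC2, 4.03 for SSX3, 3.90 for ROBO2, 3.89 for PAGE2B and 3.42 for FMR1NB. A change of the gap can arise in IM-9 or in the myeloma lines. Smaller upward changes were 1.87 for FCRLA, 1.73 for GBP2, 1.71 for CAV1, 1.66 for CD28, 1.07 for MX1 and 1.06 for CPT1A. For CAV1, CD28 and CPT1A, which were lower in parental IM-9, an upward change means a narrower gap. Downward changes were -5.72 for SLCO4C1, -3.67 for AFAP1-AS1, -3.51 for ITM2A, -2.51 for HMGCS1 and -2.25 for ME1. B cell and interferon genes with a narrower gap were CD22 with -1.24, CD48 with -1.33, EBI3 with -1.29, IL21R with -1.15, GBP4 with -1.86 and IFI44 with -1.07. GBP2 and GBP4, neighbouring guanylate-binding proteins, thus changed in opposite directions.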

How the results depend on the processing

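With a filter at the upper quartile (8.12), 401 genes were higher, all among the 631; 424 were higher in HR, 85 gaps rose, and the pairs gave 1254 (IM-9 and KMS-11), 1522 (IM-9 and U266), 1622 (RPMI8226 and KMS-11), 2148 (RPMI8226 and U266) and 1439 (KMS-11 and U266). Unadjusted calls over lines numbered 313 there and 816 with no filter, and adjusted calls 0 in each. With no fold threshold 1668 genes were higher and 1813 lower (HR 1763 and 2391), and at 4-fold 279 and 144 (HR 286 and 148). With 1 myeloma line left out, 729 were higher and 716 lower (RPMI8226), 793 and 685 (KMS-11) or 807 and 768 (U266). Leaving out 1 array gave 610 to 710 higher and 524 to 586 lower, 0 to 0 over lines (unadjusted 515 to 545), 657 to 689 and 599 to 649 in HR, and 133 to 191 gaps up and 111 to 129 down. The pairs then gave 1893 to 1930 (IM-9 and KMS-11), 2495 to 2651 (IM-9 and RPMI8226), 2275 to 2333 (IM-9 and U266), 2213 to 2262 (KMS-11 and U266), 2446 to 2475 (RPMI8226 and KMS-11) and 3181 to 3289 (RPMI8226 and U266). Signs turned for PLCG2 (1.02, mean over probe sets), ICAM3 (-1.39, without KMS-11), CCL3 (1.80) and PAGE2B (1.75, both without U266); the cause was not tested. Of 211 called genes named or listed, all 211 kept their call under quantile normalization and probe set means. All 211 also kept it under no filter, array weights, an intensity trend and the 16-array fit. Those settings could hardly remove a call, since with 2 arrays a line they leave the difference and the overlap of arrays as they were. Without RPMI8226, KMS-11 and U266, 198, 196 and 197 kept it. With dim values set to the filter level, an alternative chosen after seeing the data, 186 kept it. Array numbers did not pair the samples (r of deviations -0.20 to 0.17 over 6 pairs). The fit with the replicate block gave 631 higher and 515 lower, and it too leaves the differences unchanged. Dim values limit all folds against arrays under 6.27.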

Other observations

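Genes called in the same direction also lay next to each other on the chromosomes. In the order of tested genes there were 26 runs of at least 3 neighbours called the same way, 24 higher and 2 lower, with 85 genes in all. No test of this number was made, and members of a gene family can share probe signal. With dim values set to the filter level, members of several runs lost their calls, which breaks such runs. The longest runs held 4 genes. On chromosome 9, JAK2, PLGRKT, CD274 and PDCD1LG2 were higher together. CD274 (PD-L1), an inhibitory ligand of T cells, read 9.44 and 9.46 in IM-9 against 4.87, 5.51 and 5.63, and PDCD1LG2 (PD-L2) read 8.77 and 8.99 against 5.63, 5.84 and 6.0. JAK2 and PLGRKT had smaller differences, 1.49 and 1.05, and PLGRKT lost its call without KMS-11 and without IM-9 array 2. On chromosome 1, the lymphocyte receptors SLAMF6, SLAMF1, CD48 and SLAMF7 were higher. SLAMF1 was low in all 3 myeloma lines, at most 3.96, while SLAMF6 had a mean of 9.40 in U266.

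On chromosome 3, C3orf52, GCSAM, CD200 and BTLA were higher, and on chromosome 11, HBE1, OR51B4, TRIM5 and TRIM22. Of these, C3orf52, CD200 and OR51B4 lost their calls with dim values set to the filter level. TRIM5, a restriction factor of retroviruses, differed by 2.00 beside the 5.86 of TRIM22. APOBEC3D, APOBEC3F and APOBEC3G, cytidine deaminases that also restrict viruses, were higher by 1.22, 1.31 and 3.36. Replication-dependent histone genes made up a pair of runs on chromosome 6. H3C11 differed most of them, with 10.98 and 10.96 in IM-9 against 5.36, 5.90 and 6.3. H2BC8 and H3C12 lost their calls without U266, and H2BC8 also with dim values set to the filter level. TNFAIP3 and IFNGR1 were neighbours of MAP3K5 in a run on the same chromosome. The lower runs were HAX1, ATP8B2 and IL6R on chromosome 1 and SETD7, MGST2 and MAML3 on chromosome 4. MGST2 and MAML3 lost their calls with dim values set to the filter level, so the run on chromosome 4 did not hold there.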
